A study of Mus musculus with 24 samples.

Results

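The 9 genes described here handle vitamin A and vitamin D in the cell, namely Lrat, Stra6, Dhrs3, Crabp2, Aldh1a2, Rara, Rarb, Rarg and Vdr. They were taken by gene symbol from the 53801 genes listed in the deposited expression values, and each symbol matched 1 gene. Their RNA was measured in murine pancreatic stellate cells (PSC), the resident fibroblast-like cells of the pancreas, which were co-cultured with KPC cells, a murine pancreatic cancer cell line, or kept in mono-culture as control PSC. All PSC came from wild-type C57BL/6J mice aged 7 to 10 weeks, were isolated from 4 to 10 pooled pancreata per isolation and were used at passage 1 to 2. A membrane with pores of 1 µm, on which the PSC grew, separated both cell types.

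The tumor cells lay on the floor of the well below the insert in standard co-culture (distant paracrine in the labels), and adhered to the lower face of the PSC-bearing membrane in inverse co-culture (close paracrine). RNA was taken after 24 h and 72 h, which gave 8 groups of 3 libraries. Because the KPC cells of the inverse model were attached before the PSC were seeded, both cell types co-existed for up to 96 h, against up to 72 h in the standard model. Standard-model PSC were seeded in medium with 16% fetal bovine serum, which was changed to another medium with 10% when co-culture began. Inverse-model PSC were seeded directly in the latter medium. Libraries were made from 450 ng RNA in the standard model and from 120 ng in the inverse model. RNA input, seeding medium, time together and model therefore cannot be told apart.

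Stellate cells of the pancreas and liver are known for storing vitamin A in lipid droplets, which they lose on activation. Retinol enters cells by the receptor Stra6, Lrat esterifies it for storage, Dhrs3 turns retinaldehyde back into retinol, and Aldh1a2 oxidises retinaldehyde to retinoic acid. Crabp2 carries retinoic acid to its receptors Rara, Rarb and Rarg, which bind DNA together with RXR and switch on genes that include Rarb itself. Vdr is the nuclear receptor of the active form of vitamin D, also works with RXR and is known in stellate cells as a brake on activation.

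Receptors of this family bind direct repeats of a six-letter half-site, with 5, 2 or 1 bases between the repeats for RAR and 3 for Vdr. Promoter sequences (250 bases before to 50 after each RefSeq start, GRCm38.p6) were at hand for 8 of the 9 genes, in 17 windows, and were searched on both strands for pairs of the half-sites AGGTCA or AGTTCA or GGGTCA or GGTTCA. A single repeat was found, in Rarb, with 5 bases between half-sites and its first base 53 bases and its last base 37 bases before the start. This repeat occurred in 32 of all 32851 promoter windows (0.0974%), against 88 windows (0.268%) for a gap of 2, 73 (0.222%) for a gap of 1 and 13 (0.0396%) for a gap of 3. A match describes letters and is no measured binding site. The 250 bases before the RefSeq start of Rarb and Vdr are printed because these genes gave the clearest differences below. Both starts lie inside the longer gene spans given with their values. FPKM was counted over the whole gene, not from these starts alone. In Rarb (minus strand, chr14:16575477-16575726) capitals mark both half-sites of the repeat, and in Vdr (minus strand, chr15:97908297-97908546) they mark its single half-site, which lies on the other strand and begins 91 bases before the start.
Rarb: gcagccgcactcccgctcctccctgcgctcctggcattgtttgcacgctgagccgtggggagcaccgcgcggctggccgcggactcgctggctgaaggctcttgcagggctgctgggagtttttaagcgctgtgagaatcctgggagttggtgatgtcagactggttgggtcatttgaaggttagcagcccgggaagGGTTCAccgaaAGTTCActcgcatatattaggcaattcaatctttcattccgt
Vdr: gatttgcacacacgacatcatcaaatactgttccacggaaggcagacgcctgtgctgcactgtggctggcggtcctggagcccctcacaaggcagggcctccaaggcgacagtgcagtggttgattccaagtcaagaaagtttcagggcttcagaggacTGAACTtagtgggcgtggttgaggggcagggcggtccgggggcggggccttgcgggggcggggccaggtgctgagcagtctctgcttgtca

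Values are FPKM, fragments of a gene scaled by its length and by the library's counted fragments, and the libraries held between 15932737 and 24798761 counted fragments. Co-cultured PSC were compared with control PSC of the same model and time by limma's moderated test on log2(FPKM + 0.5), over all genes that exceeded an FPKM of 1 in 3 or more of those 6 libraries. A gene with a Benjamini-Hochberg adjusted p under 0.05 is called a DEG, and differences on this log2 scale understate the change of genes with low FPKM. In bulk RNA, a smaller share of cells that express a gene and less of its RNA per cell cannot be told apart.

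The replicate 1 libraries of the standard model stood apart from replicates 2 and 3. Over 14452 genes, replicate 1 of control PSC correlated with replicate 2 at r = 0.90 at both times, against r = 0.97 between replicates 2 and 3. Acta2, the smooth muscle actin of activated stellate cells, had an FPKM of 5963 in replicate 1 of standard control PSC at 24 h, 824 in replicate 2 and 1509 in replicate 3. Of 13 markers in a joint list for stellate cells and fibroblasts, 12 had a mean FPKM above 1 in each group, whereas Gfap reached at most 0.238 in a library. This joint list does not tell stellate cells from other fibroblasts. Ptprc, Lyz2 and 8 other macrophage markers summed to between 455.6 and 1550 FPKM in replicate 2 of the standard model, and to between 27.3 and 282.9 in the other libraries. Among 10 epithelial markers, Epcam did not exceed 0.123 FPKM in a library, while Krt8 was listed at 0 in all 6 inverse control libraries and reached 15.2 in replicate 2 of inverse co-culture at 24 h. Other cells' markers are set beside Vdr, Aldh1a2, Dhrs3 and some further genes below, and the part of these cells in any difference was not tested.

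Of the 9 genes, 6 were expressed with an FPKM above 1 in all 24 libraries and were tested in each comparison. Ordered by their median FPKM over the libraries, these were Aldh1a2 (443.4), Dhrs3 (203.0), Rarg (94.1), Vdr (41.4), Rara (23.5) and Rarb (6.16). In inverse co-culture 1 of these 6 genes was a DEG at 24 h, namely Vdr, against 2.47% of all 12827 genes tested (1.08% higher). Vdr and Rarb were both higher and DEG at 72 h, against 12.8% of 13066 genes (3.27% higher, 9.57% lower). At 72 h the median of all genes tested was -0.16 on the log2 scale, so the differences there stand against a slight general shift. Scaling the libraries by the median of gene ratios removed this shift and turned the split of DEG from 427 higher and 1251 lower to 748 higher and 679 lower (139 and 178 to 179 and 144 at 24 h). With this scaling 10.9% of genes were DEG at 72 h, among them Vdr (1.01) and Rarb (1.79), and Dhrs3 as given below. No member was a DEG in standard co-culture, where 0% of 12859 genes at 24 h and 0% of 12863 genes at 72 h passed, although 371 and 800 genes had an unadjusted p under 0.05 and voom on recovered fragments also called 0 genes. Libraries of the standard model that share a replicate number deviated together, and with this number as a block in the model Vdr was a DEG at 24 h, among 1.22% of genes, and no member was one at 72 h, where 0.00777% of genes passed. In one model of all 24 libraries Vdr was a DEG in standard co-culture at 24 h (limma adjusted p = 0.0343, 0.0346% of genes) and at 72 h (limma adjusted p = 0.00991, 0.249% of genes).

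**Figure D1:**
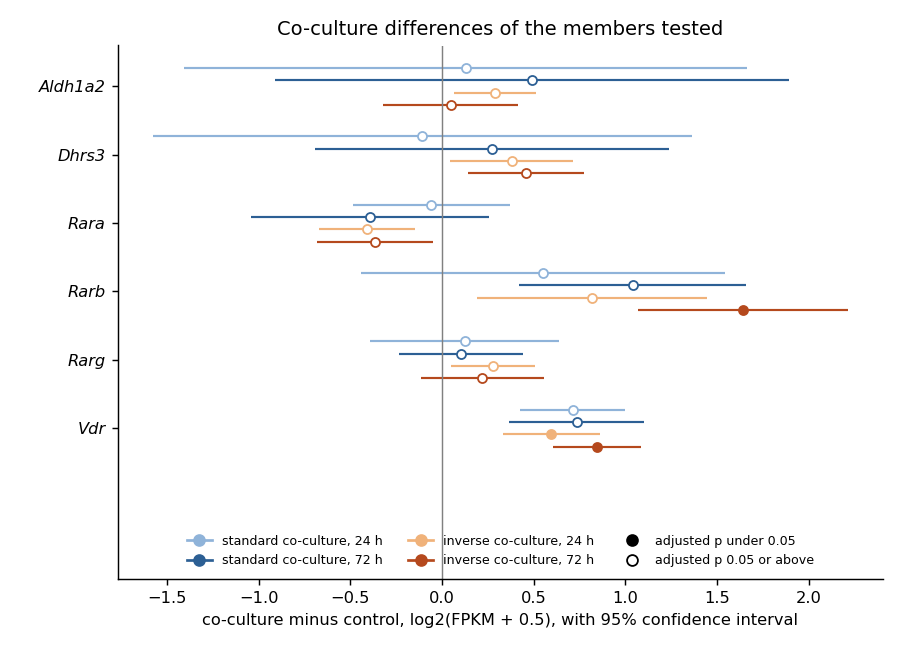
Difference between co-cultured and control PSC of the 6 tested genes on the log2(FPKM + 0.5) scale, with 95% confidence intervals from limma (3 against 3 libraries). Filled points passed the adjusted p limit of 0.05, which were Vdr in inverse co-culture at both times and Rarb in inverse co-culture at 72 h. Vdr lay above 0 in all 4 comparisons with its whole interval, and the standard model gave wide intervals for Aldh1a2 and Dhrs3.

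Vdr (ENSMUSG00000022479, chromosome 15, 97854425 to 97910630, minus strand) was higher in co-cultured PSC than in control PSC in both models and at both times. At 24 h of the standard model its FPKM was 58.3, 53.4 and 59.7 in the co-cultured libraries and 38.3, 33.1 and 32.7 in the control libraries. At 72 h the co-cultured libraries had 64.4, 50.3 and 58.9 and the controls 40.3, 32.2 and 31.4. Both pairs of groups lay apart, with every co-cultured library above each control library, as was so for 3.35% of genes tested at 24 h and 3.36% at 72 h. The inverse model gave 48.3, 53.1 and 50.7 in co-culture at 24 h and 37.2, 33.5 and 29.6 in control. After 72 h inverse co-culture had 47.7, 49.8 and 42.4, and its controls had 26.7, 25.6 and 24.7. Groups again did not overlap at either time, which 7.38% of genes showed in the higher direction at 24 h and 9.53% at 72 h.

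The mean FPKM of Vdr in co-culture was 1.65 times that of control in the standard model at 24 h and 1.67 times at 72 h, and 1.51 and 1.82 times in the inverse model. On the log2 scale the inverse differences were 0.60 (SE 0.12, limma adjusted p = 0.0354) at 24 h and 0.85 (SE 0.10, adjusted p = 0.00559) at 72 h. Those of the standard model were of like size, 0.71 (SE 0.12, limma adjusted p = 0.705) and 0.73 (SE 0.15, adjusted p = 0.723), and did not pass the test without the replicate block. With the block, the limma adjusted p was 0.0240 at 24 h and 0.217 at 72 h. The call in inverse co-culture at 24 h was lost without replicate 2 of the co-culture (limma adjusted p = 0.135) and without control replicate 1, 2 or 3 (0.0734, 0.131 and 0.153), and also with no filter (0.0899), no intensity trend (0.0877) or all 24 libraries in one model (0.0615). The call at 72 h held without any 1 library, with limma adjusted p-values up to 0.0383. Of 12253 genes tested in all 4 comparisons, 72 (0.588%) were higher without overlap in each of them, Vdr among these. The 4 comparisons use separate libraries, but those of the standard model share replicate numbers.

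**Figure D2:**
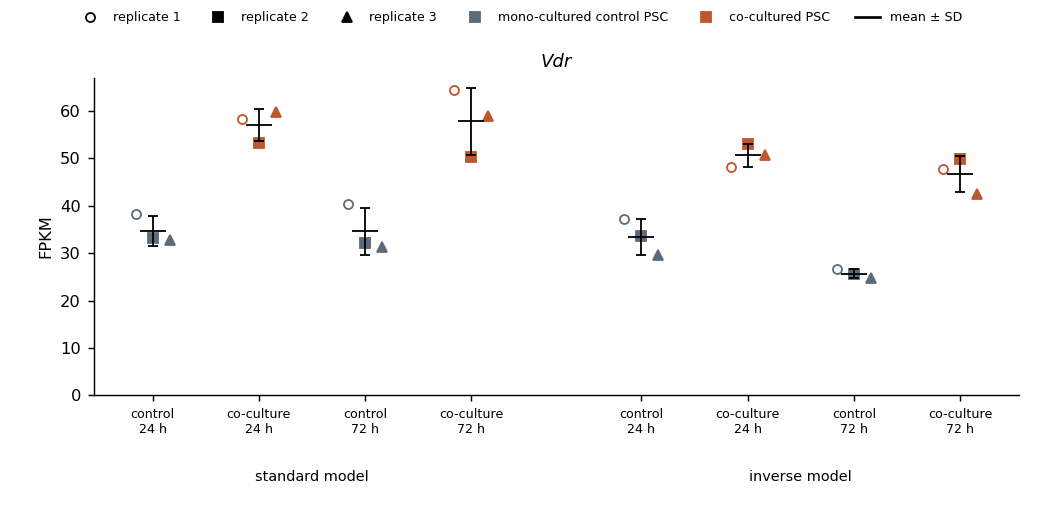
FPKM of Vdr in each of the 24 libraries, with group means and SD (n = 3), for control PSC (grey) and co-cultured PSC (orange) of both models. All 12 co-cultured libraries lay between 42.4 and 64.4 and all 12 control libraries between 24.7 and 40.3.

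By group mean, Vdr was highest in standard co-culture at 72 h (57.9 ± 7.10 FPKM, SD, n = 3) and at 24 h (57.1 ± 3.35), followed by inverse co-culture at 24 h (50.7 ± 2.39) and 72 h (46.7 ± 3.83). Control groups came next, with 34.7 ± 3.10 (24 h) and 34.6 ± 4.96 (72 h) for standard and 33.5 ± 3.80 (24 h) and 25.7 ± 0.991 (72 h) for inverse controls. Neighbours in this order overlapped in 4 of 7 cases. The exceptions were standard against inverse co-culture at 24 h, where 53.4 faced 53.1, inverse co-culture at 72 h against standard control at 24 h, and the inverse controls of 24 h against 72 h.

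Beside these values of Vdr, the 10 epithelial markers, which KPC cells could bring, summed to 3.46, 45.7 and 8.29 FPKM in inverse co-culture at 24 h and to between 1.19 and 2.03 in its controls. Vdr was 53.1 FPKM in the library with 45.7 and 48.3 in the library with 3.46, and the log2 difference of Vdr without the former was 0.56. At 72 h the sum was between 4.77 and 10.7 in inverse co-culture and between 2.50 and 6.71 in control. Epcam, Cldn4, Esrp1 and Grhl2 were at 0 in all libraries of both groups. Cdh1, Krt8 and Krt18 were at 0 in all libraries of control but not of co-culture. Of the 10 markers, 3 had a mean FPKM above 1 in inverse co-culture at 72 h and 1 in control, against 5 and 1 at 24 h. Of 2 epithelial markers tested in inverse co-culture, 0 were DEG at 24 h and 1, Krt19, rose at 72 h. In the standard model the sum was between 2.00 and 4.23 in co-culture and between 1.46 and 4.77 in control, and 0 of 1 tested passed. Replicate 2 of the standard model, with the highest macrophage marker sums, had Vdr at 53.4 FPKM in co-culture and 33.1 in control at 24 h. At 72 h it had 50.3 and 32.2. The part of KPC cells or macrophages in the values of Vdr was not tested.

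Rarb (ENSMUSG00000017491, chromosome 14, 16430839 to 16819156, minus strand), the retinoic acid receptor that is itself switched on by retinoic acid, had the largest difference among the members, in inverse co-culture at 72 h. Its FPKM there was 10.7, 9.19 and 15.6, against 3.56, 4.19 and 2.50 in control PSC, and the groups lay far apart. Higher values without overlap were found for 9.53% of genes tested in that comparison. The ratio of means was 3.46, and the log2 difference was 1.64 (SE 0.25, limma adjusted p = 0.00844). Leaving out each library in turn kept this between 1.43 and 1.80, with limma adjusted p-values of at most 0.0443. At 24 h inverse co-culture had 9.42, 6.93 and 11.9 and control PSC 7.42, 4.72 and 3.53, with 1 control library (7.42) above the lowest co-cultured library (6.93). That log2 difference was 0.82 (SE 0.28, limma adjusted p = 0.196).

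In the standard model at 72 h Rarb had 6.03, 7.36 and 5.93 FPKM in co-culture and 1.96, 2.97 and 3.94 in control, without overlap. Rarb and Vdr were among the 224 of 12572 genes (1.78%) that were higher without overlap at 72 h in both models. The ratio of means was 2.18 and the log2 difference 1.04 (SE 0.26, limma adjusted p = 0.723), with a confidence interval from 0.42 to 1.66. At 24 h the values 5.83, 7.59 and 10.5 overlapped with 2.69, 7.79 and 6.28, and the log2 difference was 0.55 (SE 0.41, limma adjusted p = 1). Means of all 4 co-cultured groups, between 6.44 and 11.8 FPKM, were above those of all 4 control groups, between 2.96 and 5.59, but each neighbour in the order of the 8 groups overlapped with the next. Reads of Rarb are less certain than those of the other members, since 1793 of its exon bases also lie in Top2b, a topoisomerase gene on the opposite strand, and counting disregarded the strand. Top2b itself had mean FPKM between 78.7 and 90.8 in the 8 groups and a log2 difference of -0.02 (SE 0.11, limma adjusted p = 0.928) in inverse co-culture at 72 h, where Rarb rose.

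Rara (ENSMUSG00000037992, chromosome 11, 98927818 to 98974942, plus strand) and Rarg (ENSMUSG00000001288, chromosome 15, 102234938 to 102257517, minus strand), the other retinoic acid receptors, were no DEG in any comparison. Rara was 24.8, 23.6 and 20.3 FPKM in inverse co-culture at 24 h and 30.8, 30.3 and 30.4 in control, so that all co-cultured libraries were below all control libraries. At 72 h it was 19.1, 20.5 and 22.1 in inverse co-culture and 22.9, 26.6 and 31.0 in control, again without overlap but with a narrow gap. The log2 differences were -0.41 (SE 0.12, limma adjusted p = 0.121) and -0.37 (SE 0.14, limma adjusted p = 0.111), and the latter was -0.21 after scaling by the median of gene ratios. Lower values without overlap were common, in 13.8% of genes tested at 24 h and in 28.8% at 72 h. Rara of the standard model overlapped at both times, with log2 differences of -0.06 (SE 0.18) and -0.39 (SE 0.27).

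Rarg lay at 119, 109 and 103 FPKM in inverse co-culture at 24 h, above the 92.2, 84.2 and 96 of control PSC. Higher values without overlap occurred in 7.38% of genes tested there. The log2 difference of Rarg was 0.28 (SE 0.10, limma adjusted p = 0.233). After 72 h the values of 95.2, 99.9 and 133 overlapped with 86.9, 89.7 and 102. Standard co-culture had 87.4, 104 and 104 FPKM at 24 h against 66.2, 109 and 101, and 93.1, 85.2 and 79.9 at 72 h against 68.0, 87.8 and 85.8. Without the replicate 1 libraries, the small differences of the standard model, 0.12 and 0.10 on the log2 scale, turned to -0.01 and -0.07. The 3 receptors gave 1 DEG in 1 comparison, Rarb in inverse co-culture at 72 h, where 12.8% of 13066 genes were DEG (3.27% higher).

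**Figure D3:**
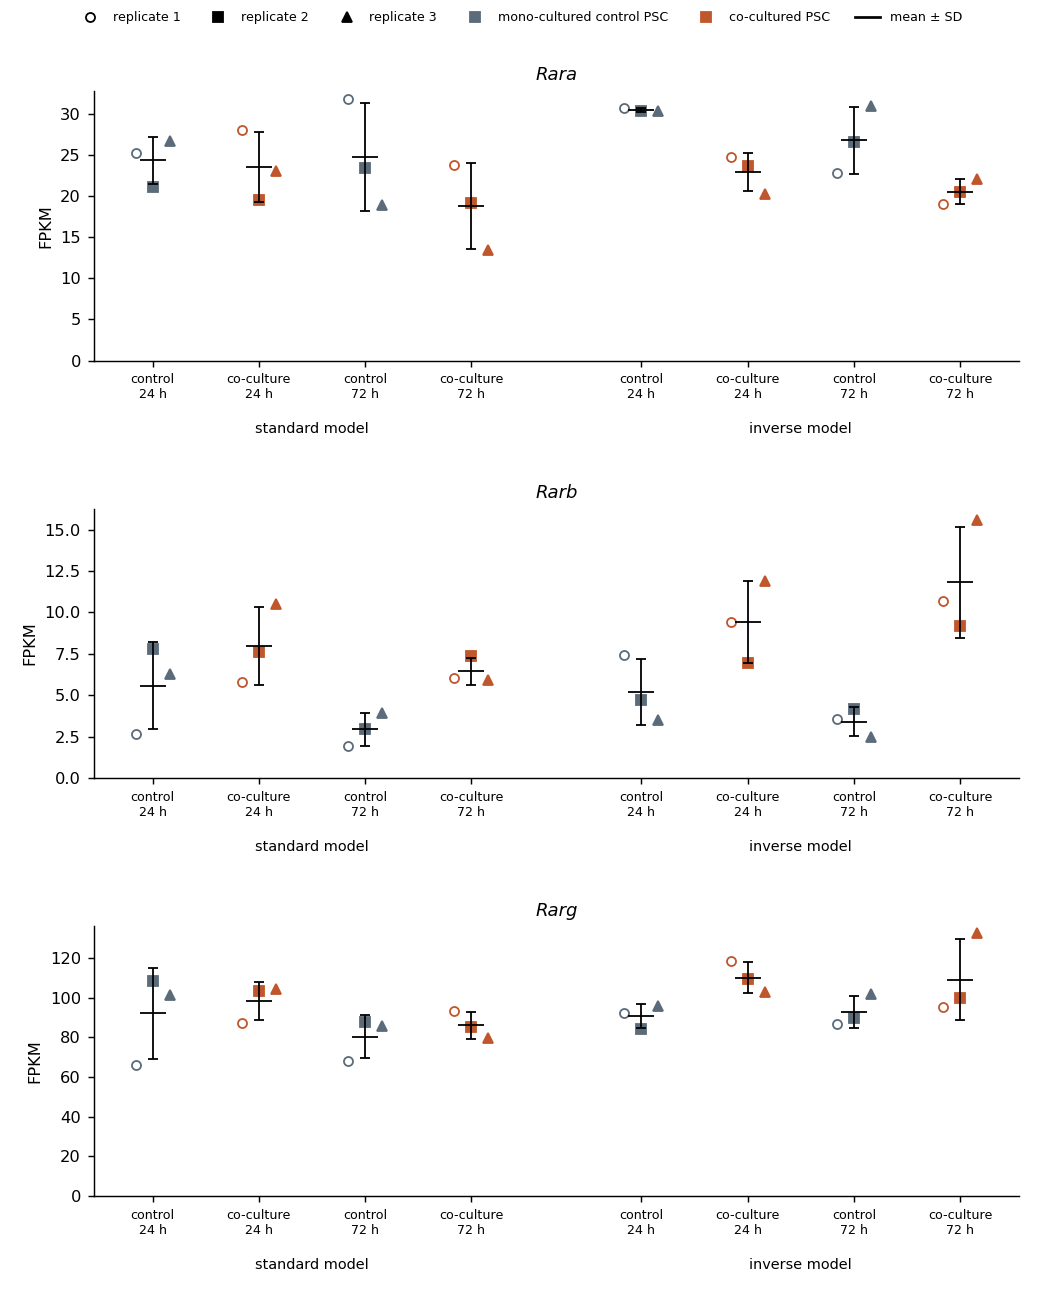
FPKM of the retinoic acid receptors Rara, Rarb and Rarg in each library, with group means and SD (n = 3) and each axis starting at 0. Rarb of inverse co-culture at 72 h lay between 9.19 and 15.6 and its controls between 2.50 and 4.19, whereas Rara of inverse co-culture lay below its controls at both times.

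Aldh1a2 (ENSMUSG00000013584, chromosome 9, 71215789 to 71296243, plus strand), which makes retinoic acid, was the most abundant member and was no DEG. In inverse co-culture at 24 h it had 491, 453 and 464 FPKM against 354, 422 and 378 in control. The groups did not overlap, which 7.38% of genes showed in the higher direction. The log2 difference there was 0.29 (SE 0.10, limma adjusted p = 0.201). At 72 h the values 476, 479 and 333 overlapped with 434, 379 and 420. In the standard model its replicate 1 libraries were below replicates 2 and 3 of their group, with 201 FPKM in replicate 1 of co-culture at 24 h against 486 and 411 in replicates 2 and 3. The matching controls had 122.5, 521 and 480. At 72 h co-culture had 315, 610 and 522 and control 130, 542 and 510, so each co-cultured library was above the control of the same number. The log2 difference at 24 h was 0.13 (SE 0.63) and turned to -0.16 without the replicate 1 libraries. The difference at 72 h was 0.49 (SE 0.58, limma adjusted p = 0.920), with a confidence interval from -0.91 to 1.89. The sum of 7 mesothelial markers was also lowest in replicate 1 of each standard group. It was 14.3, 49.6 and 34.8 FPKM in standard control at 24 h and 16.8, 46.5 and 39.3 at 72 h. Standard co-culture had 20.7, 44.8 and 34.1 at 24 h and 24.6, 41.8 and 38.2 at 72 h. In inverse co-culture at 24 h the sum was 33.1, 42.2 and 36.3 against 22.8, 24.98 and 20.6 in control. The part of mesothelial cells in the values of Aldh1a2 was not tested.

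Dhrs3 (ENSMUSG00000066026, chromosome 4, 144892827 to 144928209, plus strand), the reductase that returns retinaldehyde to retinol, had 241, 244 and 210 FPKM in inverse co-culture at 72 h. Control PSC had 189, 140 and 180, below each co-cultured library, as was so for 9.53% of genes tested. The ratio of means was 1.37 and the log2 difference 0.46 (SE 0.14, limma adjusted p = 0.0632). Scaling by the median of gene ratios made Dhrs3 a DEG with a log2 difference of 0.62 (limma adjusted p = 0.0233), and voom, with 15.7% of genes called, made it one too (adjusted p = 0.0458). At 24 h inverse co-culture had 286, 224 and 193 and control 162, 176 and 196, with 1 overlapping library in each group. The standard model repeated the pattern of Aldh1a2, with 81.3 FPKM in replicate 1 of co-culture at 24 h and 81.5 in its control, against between 221 and 291 in replicates 2 and 3. After 72 h it was 164, 227 and 213 in co-culture and 87.5, 265 and 193 in control. The log2 difference of 0.27 (SE 0.40) at 72 h turned to -0.04 without the replicate 1 libraries. Mesothelial marker sums, given above with Aldh1a2, were lowest in the same replicate 1 libraries. In inverse co-culture at 72 h these sums were 36.4, 31.6 and 28.97 FPKM and overlapped with 34.4, 24.2 and 27.3 in control. The part of mesothelial cells in the values of Dhrs3 was not tested.

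**Figure D4:**
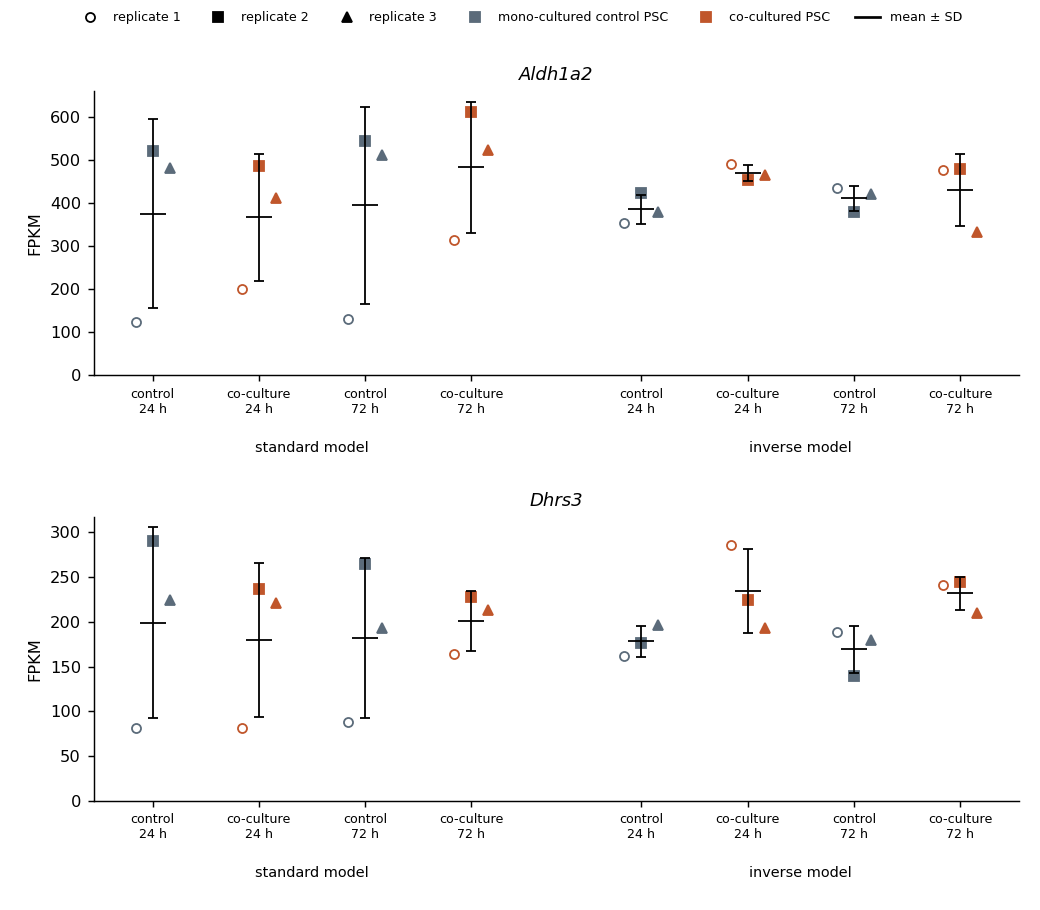
FPKM of the retinoid enzymes Aldh1a2 and Dhrs3 in each library, with group means and SD (n = 3). The replicate 1 libraries of the standard model (open circles, left side) were the lowest of their group for both genes, between 122.5 and 315 for Aldh1a2 and between 81.3 and 164 for Dhrs3, which gave the standard model its large SD.

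The genes for uptake, storage and transport were at or near 0. Lrat (ENSMUSG00000028003, chromosome 3, 82892579 to 82903973, minus strand), whose product makes the retinyl esters of the lipid droplets, was listed at 0 in 21 of 24 libraries. The other 3 libraries, all of the standard model at 72 h, held 3, 2 and 2 fragments, and the highest value was 0.0306 FPKM. A count of 0 allows up to 3 fragments, which for Lrat would be between 0.0226 and 0.0352 FPKM at the depth of these libraries, for counting error only. Stra6 (ENSMUSG00000032327, chromosome 9, 58063788 to 58153996, plus strand), the membrane receptor for retinol uptake, was above 0 in 23 libraries but did not exceed 0.440 FPKM. Crabp2 (ENSMUSG00000004885, chromosome 3, 87948666 to 87953376, plus strand) was above 1 FPKM in 1 library, replicate 1 of inverse co-culture at 24 h with 1.33, and was listed at 0 in 6. None of these 3 genes passed the filter, and without the filter none was a DEG in a co-culture comparison. Stra6 was 0.348, 0.0934 and 0.355 FPKM in standard co-culture at 24 h and 0.0320, 0.0828 and 0.0809 in control, which rests on few fragments. In inverse co-culture at 24 h its values of 0.335, 0.0635 and 0.181 against 0.411, 0.440 and 0.258 lay the other way.

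Over time in culture, 1 of the 6 tested members changed between 24 h and 72 h in control PSC of the inverse model, where 19.2% of 13092 genes were DEG (9.05% lower). The groups did not overlap, as was so for 16.9% of genes in the lower direction. Vdr fell there from a mean of 33.5 to 25.7 FPKM, by 0.37 on the log2 scale (SE 0.11, limma adjusted p = 0.0454). The inverse controls of 72 h are the same libraries against which inverse co-culture at 72 h was set. The call was lost without control replicate 1 or 2 of 24 h (limma adjusted p = 0.133 and 0.125) and without replicate 1, 2 or 3 of 72 h (0.0844, 0.0771 and 0.116), and also with no filter (0.0800), no intensity trend (0.0784) or all 24 libraries in one model (0.118). Standard-model control PSC differed in Vdr by -0.01 (SE 0.15), and 0 members and 0% of 12963 genes were DEG by limma, with 127 genes at an unadjusted p under 0.05 and 0 genes by voom. Rarb was lower at 72 h than at 24 h in control PSC of both models, with log2 differences of -0.51 (SE 0.28, limma adjusted p = 0.222) in the inverse and -0.75 (SE 0.43, limma adjusted p = 1.00) in the standard model.

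Whether the models differed in their co-culture effect was asked in 1 model of the 24 libraries, and no member and no gene passed at 24 h or 72 h, while 182 and 501 of 14452 genes had an unadjusted p under 0.05 and voom also called 0 genes. With the replicate block 16 genes passed at 72 h, none of them a member. For Vdr the co-culture effect of the inverse model minus that of the standard model was -0.12 (95% confidence interval -0.46 to 0.23) at 24 h and 0.11 (-0.23 to 0.46) at 72 h. For Rarb it was 0.27 (-0.73 to 1.27) and 0.60 (-0.40 to 1.60). The intervals are wide, and these data do not show that the models act alike on either gene. The effect at 72 h minus the effect at 24 h in the inverse model was 0.82 for Rarb (-0.05 to 1.70, limma adjusted p = 0.488) and 0.25 for Vdr (-0.07 to 0.57, limma adjusted p = 0.559). No gene passed this test, with 1471 of 13722 at an unadjusted p under 0.05 and 14 genes by voom, none of them a member. In the standard model the same difference was 0.02 (-0.40 to 0.44) for Vdr and 0.49 (-0.63 to 1.61) for Rarb, and no gene passed it, with 141 of 13694 genes at an unadjusted p under 0.05 and 0 by voom.

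Genes that carry or convert retinoids beside the members were tested as well. Fabp5, a carrier of fatty acids and retinoic acid, was lower in inverse co-culture than in control at 72 h. The log2 difference was -2.04 (SE 0.26, limma adjusted p = 0.00615), in a comparison where 9.57% of genes tested were DEG and lower. In standard co-culture 0 of 4 tested carriers were DEG.

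Rdh10, which oxidises retinol to the retinaldehyde used by Aldh1a2, rose in inverse co-culture at 24 h, from 12.1, 14.1 and 12.5 to 29.6, 26.9 and 26.9 FPKM. Its log2 difference was 1.08 (SE 0.12, limma adjusted p = 0.00521), and it was the single DEG among 15 enzymes tested, whose median log2 difference was -0.18 against -0.06 over all genes tested. After 72 h, 6 of 15 enzymes were DEG and all 6 fell, with a list median of -0.45 against -0.16 over all genes tested, of which 12.8% were DEG. The 4 largest were Lipe (-2.67) and Pnpla2 (-2.45), lipases of the fat droplet, Adh1 (-1.87), an alcohol dehydrogenase that oxidises retinol, and Dgat1 (-1.67), which makes fat and can esterify retinol. The remaining ones, named after their values were seen, were Aldh1a3 (-1.57) and Aldh1a1 (-1.12), which make retinoic acid as Aldh1a2 does. The call of Adh1 was lost without control replicate 1 or 3 (limma adjusted p = 0.0719 and 0.0767).

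Lipe, Pnpla2, Dgat1 and Fabp5 are also abundant in fat cells, and fat cell markers moved with them. After 72 h of inverse co-culture 6 of 7 tested adipocyte markers fell, and the 8 markers summed to between 37.9 and 134.9 FPKM against between 468.6 and 973.2 in control, with none at 0 in all libraries of a group. In inverse control PSC this sum was between 214.6 and 310.9 at 24 h. Macrophage markers moved likewise, with 6 of 9 tested lower at 72 h and sums between 61.7 and 91.1 FPKM against between 140.8 and 282.9. The part of such cells in the fall of these enzymes was not tested. In inverse control PSC, whose 72 h libraries enter both comparisons, Lipe had a log2 difference of 1.84 between 24 h and 72 h, Pnpla2 of 1.60, Dgat1 of 1.14 and Fabp5 of 1.16. Of the adipocyte markers 1, Fabp4, also stands in the list for stellate cells and fibroblasts. Aldh1a1 was lower in each standard co-culture library too, with 50.8, 45.1 and 57.9 FPKM against 129, 92.9 and 117 in control at 24 h. Lower values without overlap occurred in 4.38% of genes tested there. The log2 difference of Aldh1a1 was -1.13 and passed with the replicate block (limma adjusted p = 0.0144). Rdh10 was also a DEG there with the block, with a log2 difference of 1.00 (limma adjusted p = 0.0240), from 6.47, 20.2 and 13.7 FPKM in control to 11.1, 47.0 and 29.2 in the co-culture of the same numbers. Without the block no enzyme was a DEG in standard co-culture.

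**Figure D5:**
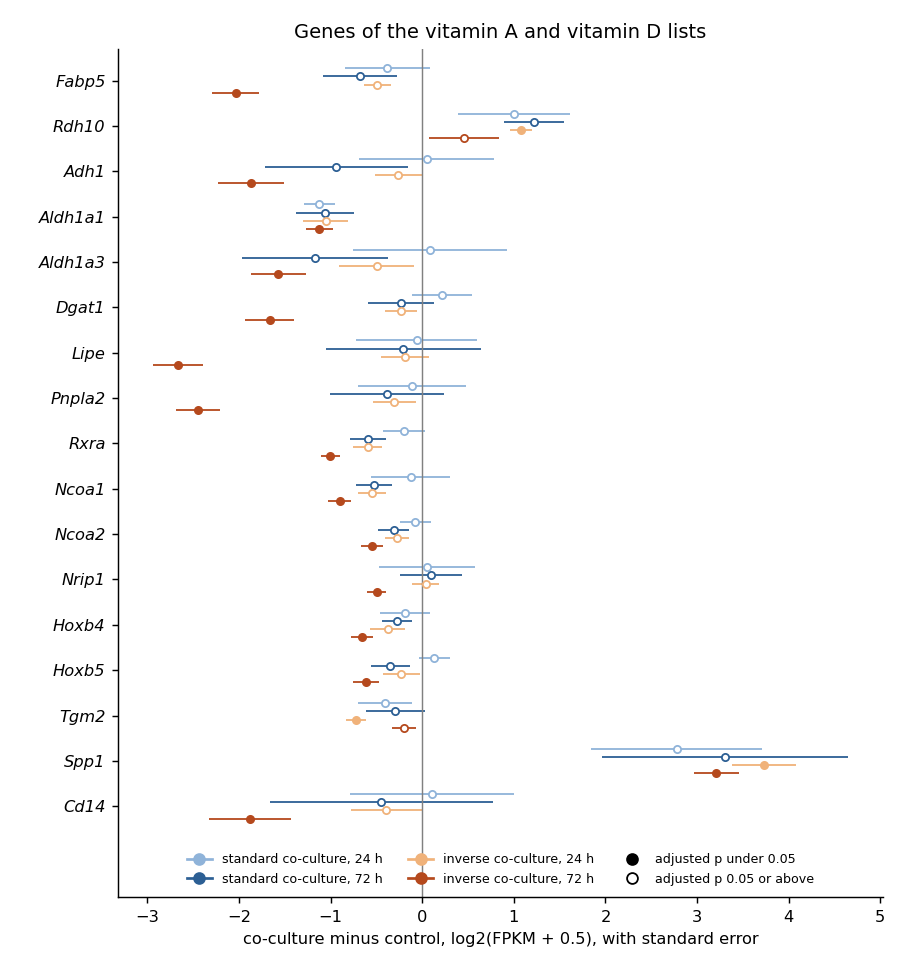
Difference between co-cultured and control PSC on the log2(FPKM + 0.5) scale with standard errors for 17 named genes of the vitamin A and vitamin D lists that were DEG in a co-culture comparison without the replicate block. Filled points passed the adjusted p limit of 0.05. Rdh10 and Spp1 lay above 0 and Aldh1a1 below 0 in all 4 comparisons, whereas Lipe and Pnpla2 had differences of -2.67 and -2.45 in inverse co-culture at 72 h and lay near 0 in the other comparisons.

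Of the partners and cofactors of the receptors, 4 of 9 tested fell in inverse co-culture at 72 h, against 9.57% of all genes tested. Rxra, the partner with which both RAR and Vdr bind DNA, fell from 100.3, 102.1 and 102.7 to 49.1, 57.5 and 45.6 FPKM, by 1.00 on the log2 scale (SE 0.11, limma adjusted p = 0.00444). The list median was -0.40 against -0.16 over all genes tested. The others were the coactivators Ncoa1 (-0.90) and Ncoa2 (-0.54) and the corepressor Nrip1 (-0.50). Scaling by the median of gene ratios left 2 of these calls, as Ncoa2 (limma adjusted p = 0.0871) and Nrip1 (0.0726) no longer passed, and likewise 2 of 9 passed without co-culture replicate 1 or any control library. In inverse control PSC, whose 72 h libraries enter this comparison, 4 of the 9 were DEG and higher at 72 h than at 24 h. None was lower, and 10.2% of all genes were DEG and higher. The list median there was 0.29 against 0.04 over all genes tested. At 24 h Rxra was 71.4, 58.1 and 45.4 FPKM in inverse co-culture and 83.1, 87.7 and 90.2 in control, and 0 of 9 genes passed limma's test, while voom called 1 of 7 tested lower. In standard co-culture Rxra had log2 differences of -0.20 (SE 0.23) and -0.60 (SE 0.20), and 0 of 9 genes passed at either time.

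Of 14 tested genes known to respond to retinoic acid, 1 fell in inverse co-culture at 24 h, Tgm2, a transglutaminase, which was lower by 0.72 on the log2 scale (SE 0.11, limma adjusted p = 0.0164). Tgm2 was not called without co-culture replicate 2 (limma adjusted p = 0.0745) or control replicate 1 or 3 (0.0778 and 0.0834). At 72 h 3 of 14 fell, the corepressor Nrip1 and the homeobox genes Hoxb4 (-0.66) and Hoxb5 (-0.61), beside the 9.57% of all genes that were DEG and lower. Of the 14 genes 0 fell without co-culture replicate 1 or control replicate 1 or 3, and 1 fell without control replicate 2. In inverse control PSC 3 of the 14 were DEG and higher at 72 h than at 24 h, and 1 was lower. Of all genes 10.2% were higher there and 9.05% lower. Cyp26b1, the enzyme that breaks down retinoic acid and 1 of 3 in its list to be tested, was 10.9, 17.9 and 20.8 FPKM in inverse co-culture at 24 h and 33.1, 26.7 and 29.1 in control. It had no overlap at that time, as was so for 13.8% of genes in the lower direction, but did not pass. In the co-culture comparisons 0 of the list passed limma's test, with or without the replicate block in the standard model. However, voom called Cyp26b1 lower in inverse co-culture at 24 h. Standard-model Cyp26b1 was 72.7 FPKM in replicate 1 of control at 24 h and 10.7 and 16.8 in replicates 2 and 3, and 0 of 14 response genes passed at either time.

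The vitamin D side gave few calls beyond Vdr. Spp1, osteopontin, which vitamin D is known to induce in bone, rose in inverse co-culture at 24 h from 75.3, 88.4 and 38.1 to 654, 686 and 1357 FPKM, a log2 difference of 3.73 (SE 0.35, limma adjusted p = 0.00341). At 72 h it rose from 132, 81.5 and 97.2 to 1078, 1156 and 677, a log2 difference of 3.21 (SE 0.24, limma adjusted p = 0.00269). In standard co-culture at 24 h it rose with the replicate block (log2 difference 2.78, limma adjusted p = 0.0220), from 20.9, 250 and 48.0 FPKM to 276, 869 and 349. Macrophages make Spp1 as well. Their markers summed to 96.8, 81.1 and 27.3 FPKM in inverse co-culture at 24 h and to between 80.6 and 92.7 in control. Epithelial markers, which KPC cells could bring, summed to 3.46, 45.7 and 8.29 FPKM in these co-cultured libraries. In control they summed to between 1.19 and 2.03. Sums of both lists at 72 h are given above. The part of macrophages or KPC cells in the rise was not tested. With all 24 libraries in one model Spp1 was not called in inverse co-culture at 24 h (limma adjusted p = 0.164) or 72 h (0.0568). Cd14, a monocyte receptor, was the only other DEG of 6 tested response genes, lower by 1.88 in inverse co-culture at 72 h (limma adjusted p = 0.0346). This call was lost without co-culture replicate 1 (limma adjusted p = 0.101) or any of the control libraries (0.120, 0.0597 and 0.119). Cyp24a1, the enzyme that breaks down active vitamin D and its best known target, did not exceed 0.118 FPKM in a library and was not tested. Of 7 genes of vitamin D metabolism 3 were tested, and 0 were DEG in a co-culture comparison by limma without the block or by voom, although their median log2 difference in inverse co-culture at 72 h was -1.13. Without co-culture replicate 2 or 3, 1 of the 3 passed there. In inverse control PSC, whose 72 h libraries enter that comparison, the median of the 3 between 24 h and 72 h was 0.84. Of the 3, 1 was a DEG and higher at 72 h, against 10.2% of all genes.

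The genes whose values across the 24 libraries were most like those of a member are given as a description, since libraries of 1 group and of 1 replicate number are not independent. Vdr was most like C430002N11Rik (Pearson r = 0.91) and Timp1 (r = 0.89), an inhibitor of metalloproteinases, and Rarb like Adgra2 (r = 0.88) and Rai14 (r = 0.87). Il4ra (r = 0.95) was among the genes most like Aldh1a2, and Dhrs3 was most like Ctsl (r = 0.93) and Cyp7b1 (r = 0.91). For Rara these were Ajuba (r = 0.85) and Maz (r = 0.84), and for Rarg Iqcc (r = 0.82) and Resf1 (r = 0.81).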

How the data were processed

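RNA of PSC was sequenced as 24 libraries. The authors had the reads aligned with HISAT2 2.0.5 to GRCm38.p6, counted per gene with featureCounts 1.5.0-p3 at default settings, which disregard the strand, and deposited FPKM values, with no scaling beyond the total of each library. The values are whole fragments divided by the mean transcript length of GENCODE M21 for 94.2% of genes above 0 (within 0.02 of a whole number), which gave the depth of each library and all fragments of the 9 genes. The authors' DEG came from counts, which were not used here.

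limma 3.58.1 in R 4.3.3 tested log2(FPKM + 0.5), two-sided and without covariates, with an intensity trend, on genes that exceeded an FPKM of 1 in 3 or more libraries compared, with Benjamini-Hochberg adjustment over all of them. Each co-culture and each change over time used the 6 libraries concerned, differences between models all 24 and differences between times within a model 12. With 3 against 3 libraries an exact permutation test cannot give a p under 0.1. The methods call the replicates biological, but do not say whether they came from separate isolations, so p-values measure the spread between these libraries. Fits were tested on simulated data with independent noise in each library. The simulation did not hold the deviations that same-numbered libraries of the standard model shared.

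In the standard model, deviations of same-numbered libraries from their group means correlated over genes. At 24 h r was 0.823, 0.759 and 0.550, and at 72 h 0.602, 0.480 and 0.478. The numbers were therefore taken as pairs, but only in fits with the replicate block. Values of the standard model given without mention of the block leave this pairing out of their SE, intervals and p-values. The alternatives were pseudocounts of 1 and 0.1, no filter or a minimum mean of 5 FPKM, median-of-ratios scaling, no trend, other libraries in the model, the replicate block, voom on recovered fragments and each library left out. The standard model without its replicate 1 libraries was an alternative chosen after seeing the data.

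The 9 genes, the gene lists (retinoid carriers, enzymes, breakdown and response genes, RXR and cofactors, vitamin D metabolism and response genes, and markers of 8 cell types) and the tests were chosen with earlier results of these data known. From each list, DEG of a co-culture comparison were named, at most the 4 largest per comparison, and for likeness the 2 genes with the highest correlation. Some genes that these rules name are not reported here. Promoters are from RefSeq. Python 3.11.15 with pandas 2.3.3 and matplotlib 3.10.9 made the tables and plots.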

Additional observations from a re-analysis of the deposited data

How the results depend on the processing

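The number of members called depended on the setting in 5 comparisons. In inverse co-culture at 24 h it was 1, namely Vdr, and 0 with no filter, no intensity trend, the replicate block (adjusted p = 0.128, limma) or all 24 libraries in one model, and between 0 and 1 with each library left out. The fall of Vdr in inverse control PSC likewise gave 1 call, but 0 with no filter, no intensity trend, the replicate block (limma adjusted p = 0.0654) or all 24 libraries, and between 0 and 1 with each library left out. In standard co-culture at 24 h the count was 0, and 1 with the replicate block or with all 24 libraries in one model, and at 72 h it was 0, and 1 with all 24 libraries. In inverse co-culture at 72 h it was 2, and 3 with median-of-ratios scaling, with voom or without co-culture replicate 3, where Dhrs3 was added. Replicate numbers of the inverse model did not pair the libraries (r between -0.171 and 0.148), and the block changed no other call of a member. With this block 2 of 3 vitamin D metabolism genes were lower in inverse co-culture at 72 h, 2 of 9 partners and cofactors, and no longer Cd14, Hoxb5, Nrip1 or Ncoa2, nor Tgm2 at 24 h. With all 24 libraries in one model, 0 genes of the carrier, enzyme and response lists passed in inverse co-culture at 24 h. At 72 h this model left 0 of 14 retinoic acid response genes, 0 of 6 vitamin D response genes (Spp1, limma adjusted p = 0.0568), 2 of 9 partners and cofactors (Ncoa1 lost, 0.0599) and 4 enzymes (Adh1 lost, 0.0899). The cause of these changes was not tested.

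Pseudocounts of 0.1 and 1 kept the direction and call of all 60 member results, and voom on recovered fragments of 59, with Dhrs3 in inverse co-culture at 72 h called (limma adjusted p = 0.0458). Scaling by the median of gene ratios turned the sign of Rarg in inverse control PSC (-0.022), in 72 h minus 24 h of the standard model (0.058) and of the inverse model (0.046). Without the replicate 1 libraries of the standard model, chosen after seeing the data, the sign turned for Aldh1a2 (-0.16) and Rarg (-0.013) in standard co-culture at 24 h, Dhrs3 (-0.041) and Rarg (-0.072) at 72 h, and Vdr in 72 h minus 24 h (-0.0015).

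With each library left out in turn, the log2 difference of these genes ranged across 0. For standard co-culture at 24 h this was Dhrs3 from -0.66 to 0.39, Aldh1a2 from -0.55 to 0.51, Rara from -0.19 to 0.066, Rarg from -0.10 to 0.26. For standard co-culture at 72 h this was Dhrs3 from -0.18 to 0.61, Aldh1a2 from -0.18 to 0.85, Rarg from -0.014 to 0.17. For inverse co-culture at 72 h this was Aldh1a2 from -0.043 to 0.22. For standard control PSC over time this was Dhrs3 from -0.63 to 0.37, Aldh1a2 from -0.60 to 0.75, Rara from -0.20 to 0.17, Vdr from -0.12 to 0.063. For inverse control PSC over time this was Dhrs3 from -0.16 to 0.051, Rarg from -0.038 to 0.078. For inverse minus standard at 24 h this was Dhrs3 from -0.0075 to 1.04, Aldh1a2 from -0.22 to 0.84, Rarb from -0.0079 to 0.68. For inverse minus standard at 72 h this was Dhrs3 from -0.15 to 0.64, Aldh1a2 from -0.80 to 0.23, Rara from -0.19 to 0.21, Rarg from -0.030 to 0.23, Vdr from -0.00011 to 0.19. For 72 h minus 24 h of the standard model this was Dhrs3 from -0.12 to 0.93, Aldh1a2 from -0.31 to 1.04, Rarg from -0.16 to 0.20, Vdr from -0.059 to 0.13. For 72 h minus 24 h of the inverse model this was Dhrs3 from -0.053 to 0.23, Rara from -0.065 to 0.15, Rarg from -0.21 to 0.032.

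The depth of at least 15932737 counted fragments could not resolve differences in Lrat, Stra6 and Crabp2, which held few fragments. The standard model left wide intervals for Aldh1a2 and Dhrs3. Their SE at 24 h were 0.63 and 0.61, against 0.10 and 0.15 in the inverse model, which also had 3 libraries per group.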
